A study of Mus musculus with 2 samples.

Results

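In all, 10 genes of blood vessels and of a vasodilator peptide were described in implantation sites of control and Cbs null mice, the 6 endothelial markers Cd34, Plvap, Pecam1, Cdh5, Emcn and Nos3 and the 4 genes of adrenomedullin and its receptors, Adm, Calcrl, Ramp2 and Ramp3. They were taken by name, as every probe set whose single gene symbol in the array's annotation is one of these 10, which gave 12 probe sets of 22626. An implantation site is the stretch of pregnant uterus that holds an embryo and the maternal tissue around it. Sites were dissected on day 8 of pregnancy from females aged 4 months, bred on a C57Bl/6J X OLA129 background that both groups share. RNA of control females went to 1 array, and RNA of females homozygous for lack of Cbs, here called Cbs null, to 1 other. The gene Cbs makes cystathionine beta-synthase, an enzyme that clears homocysteine. The labels do not give the Cbs alleles of the control females, the genotype of the embryos, the kind of deletion, or whether animals were pooled. With 1 array a group there was no replicate check, and every difference below describes these 2 arrays.

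Endothelial cells line blood vessels, and in the decidua, the maternal tissue that forms around the implanting embryo, they build the vascular bed that feeds the embryo before the placenta works. Adrenomedullin is a small secreted peptide that relaxes and stabilises vessels. Its receptor is Calcrl, a G protein-coupled receptor that reaches the cell surface only together with a RAMP (receptor activity-modifying protein), and Ramp2 or Ramp3 turns it into an adrenomedullin receptor, while Ramp1 turns it into a receptor for calcitonin gene-related peptide. In mice this peptide and its receptor are known for roles in vessel growth, in lymphatic vessels and in the maternal side of implantation.

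The DNA just before the gene start is shown for the genes of the adrenomedullin system that the RefSeq promoter table holds, because the ligand gene differed between the arrays and the receptor genes did not pass the same limit. The table (build GRCm38.p6) holds 5 of the 10 members, namely Cd34, Calcrl, Emcn, Adm and Ramp3, and not Plvap, Pecam1, Cdh5, Nos3 and Ramp2. The 250 bases before the start are written 5′ to 3′ on the gene's own strand, and capitals mark matches to any of 4 motifs, each searched on both strands. The Adm window is chr7:110627407-110627656 on the plus strand, the Calcrl window is chr2:84425267-84425516 on the minus strand, and the Ramp3 window is chr11:6658283-6658532 on the plus strand.
Adm: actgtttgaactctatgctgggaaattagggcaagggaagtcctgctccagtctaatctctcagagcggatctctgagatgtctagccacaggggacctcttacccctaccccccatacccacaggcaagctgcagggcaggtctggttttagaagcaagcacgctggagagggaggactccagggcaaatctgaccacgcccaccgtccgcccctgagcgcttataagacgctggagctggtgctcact
Calcrl: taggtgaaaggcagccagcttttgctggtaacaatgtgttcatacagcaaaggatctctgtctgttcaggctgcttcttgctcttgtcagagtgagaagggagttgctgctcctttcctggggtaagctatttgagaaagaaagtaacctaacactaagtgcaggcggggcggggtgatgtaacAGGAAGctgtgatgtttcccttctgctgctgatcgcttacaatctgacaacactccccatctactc
Ramp3: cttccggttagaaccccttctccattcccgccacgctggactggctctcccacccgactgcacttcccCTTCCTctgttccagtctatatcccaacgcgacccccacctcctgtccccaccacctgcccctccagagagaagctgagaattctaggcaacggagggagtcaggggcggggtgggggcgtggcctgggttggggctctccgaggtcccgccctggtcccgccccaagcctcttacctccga

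The motifs were ACGTG, the core that hypoxia-inducible factors bind, AGGAAG, a core bound by ETS factors, which are common regulators of endothelial genes, AGATAA, bound by GATA factors, and TATAAA, the TATA box. None of the 4 was found in the Adm window. AGGAAG or its reverse complement CTTCCT was found once each in the windows of Calcrl, Ramp3 and Cd34, and 2 times in that of Emcn. Its first base lay 66 bases before the start of Calcrl and 182 before that of Ramp3. The motif is common, since 29.5% of the 32851 windows in the table hold it. For ACGTG that share was 16.6%, for AGATAA 9.99% and for TATAAA 12.4%. A match to these letters is not a measured binding site, and an absent match says only that the letters are not in this window.

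Adrenomedullin itself was the member that differed most. Adm, the gene of the peptide (probe set 1416077_at), read 69.9 in control sites and 145.5 in Cbs null sites, in linear units of array signal. The log2 ratio, Cbs null over control throughout, was 1.06, a 2.08-fold higher signal. Adm was the 1 member of 10 at least 2-fold apart, against 0.972% of the 11315 probe sets above the signal filter in either direction, 0.636% in the direction of Adm, and 0.904% of the 7079 genes above it. That filter kept probe sets whose mean over both arrays was at least 70.5. The control value of Adm lies just under 70.5, so the probe set passed through its Cbs null value. Of 148 genes that passed in this way 17 were at least 2-fold higher, against 44 of all 7079.

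Among the genes above the filter 37 had a higher ratio than Adm. In the dimmest tertile of kept probe sets, to which Adm belongs, 95% of ratios lay between -0.58 and 0.67, and Adm lay outside. Both comparisons are with kept probe sets, and Adm was kept only through its higher Cbs null value. Its rank and its place outside that range are thus partly set by the filter and are no support for a difference. The call sits near its limit, since the ratio was 0.91, under 2-fold, when a pseudocount of 16 was added to both signals in place of the floor on low values. Adm has no second probe set here, so its value has no repeat within the arrays.

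The receptor genes of adrenomedullin did not share the higher signal of the ligand. Calcrl, the receptor itself, has 2 probe sets. The brighter, 1425814_a_at, read 329.5 in control and 265.3 in Cbs null, a log2 ratio of -0.31. The other, 1418489_a_at, read 36.4 and 35.6, under the signal filter on both arrays, with a ratio of -0.03.

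Ramp2, a partner that makes Calcrl an adrenomedullin receptor (1418187_at), read 583.2 in control and 592.5 in Cbs null, a ratio of 0.02. Ramp3, the alternative partner (1420401_a_at), read 140.6 and 139.0, a ratio of -0.02. Both partners thus gave nearly the same signal on the 2 arrays. The ratio of Adm exceeded that of Calcrl by 1.37, that of Ramp2 by 1.03 and that of Ramp3 by 1.07 on the log2 scale. These gaps describe 2 arrays and have no test, and the filter, which Adm passed through its higher value, favours a large one.

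**Figure D1:**
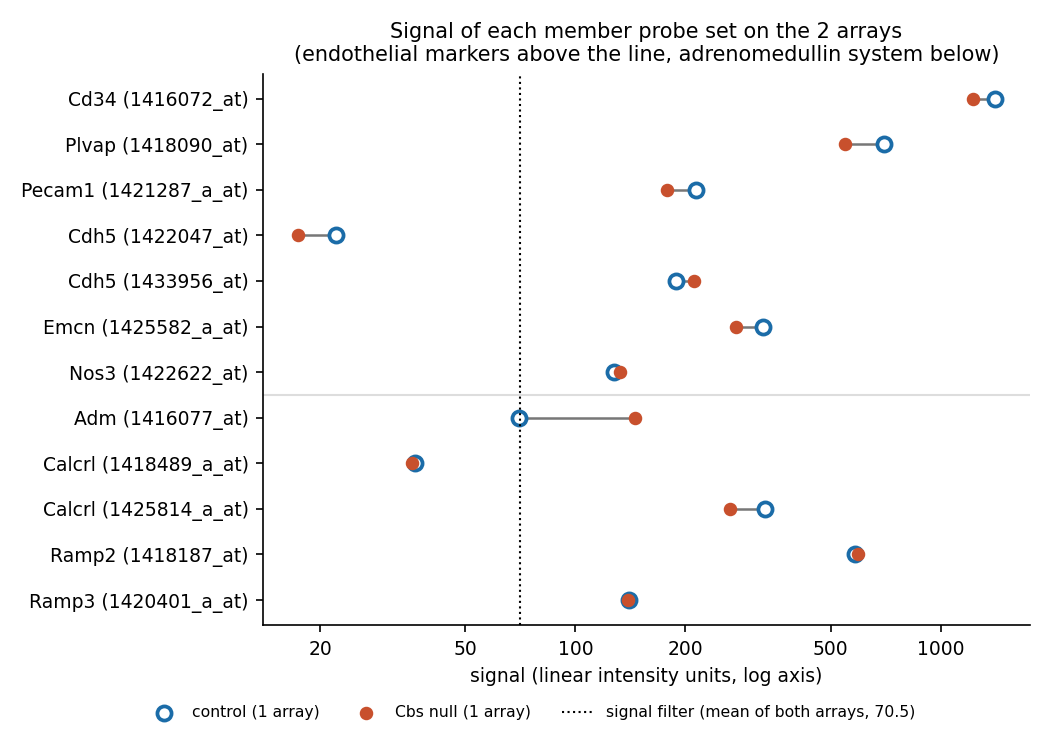
Signal of each of the 12 member probe sets on the control array (open circles) and the Cbs null array (filled circles), in linear intensity units on a log axis, with the 6 endothelial markers above the grey line and the adrenomedullin system below it. Adm goes from 69.9 to 145.5 across the dotted filter line at 70.5, Ramp2 and Ramp3 nearly coincide, and Cd34, Plvap, Pecam1 and Emcn lie lower on the Cbs null array.

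The endothelial markers differed little, and most read somewhat lower in Cbs null sites. Of the 6, which all passed the filter, 4 had a ratio below 0 and 2 above. Their median was -0.22, with a range from -0.36 to 0.16. Among all genes above the filter 44.9% had a ratio below 0, and the median was 0.02. Whether 4 of 6 differs from that share was not tested. None of the 6 was 1.5-fold apart, and of all 10 members only Adm was, against 4.25% of probe sets above the filter. The lower ratios come from 1 array a group, and their cause was not tested. In bulk tissue, a smaller share of endothelial cells and less RNA per endothelial cell cannot be told apart, nor either from a difference between single samples. Probes bind with different strength, so no order of expression between genes is read from their signals, and summed signals given below for marker lists weigh bright probe sets most.

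Plvap, a protein of the diaphragms that span openings of capillary endothelium (1418090_at), had the lowest ratio. It read 699.6 in control and 546.0 in Cbs null, a log2 ratio of -0.36, which lies at percentile 4.75 of ratios in its tertile of signal. Cd34, a sialomucin of capillary endothelium and of blood progenitors (1416072_at), read 1408.3 and 1226.5, a ratio of -0.20. Pecam1, an adhesion molecule of endothelial junctions that platelets and leukocytes also carry (1421287_a_at), read 213.8 and 178.2, a ratio of -0.26. Emcn, endomucin, a sialomucin of veins and capillaries (1425582_a_at), read 325.8 and 274.9, a ratio of -0.25. Cd34, Plvap, Pecam1 and Emcn thus each read lower in Cbs null sites, by between 1.15-fold and 1.28-fold. Nos3 and the brighter probe set of Cdh5 read higher, as given below.

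Cdh5, VE-cadherin of endothelial junctions, went either way by probe set. Its brighter probe set, 1433956_at, read 189.0 in control and 211.7 in Cbs null, a ratio of 0.16. The other, 1422047_at, read 22.1 and 17.4, under the filter, with a ratio of -0.34 that became 0 when the floor on low values was set at the 40th percentile. The 2 ratios have opposite signs, and the dimmer lies near the floor of 14.3, so the sign for Cdh5 rests on the brighter probe set. Nos3, endothelial nitric oxide synthase (1422622_at), read 127.5 and 132.3, a ratio of 0.05.

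The ratios of the 9 members other than Adm lay inside the central 95% of probe sets in their own tertile of signal. The limits were -0.58 and 0.67 for the dimmest tertile, -0.47 and 0.57 for the middle one and -0.46 and 0.47 for the brightest. Every probe set above the filter kept the sign of its ratio under the 6 alternatives of scaling, floor and pseudocount. Of 5 further markers of endothelium (Tek, Tie1, Kdr, Eng and Esam) all were above the filter, which shows signal for such genes in this bulk tissue and not the cells it came from.

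**Figure D2:**
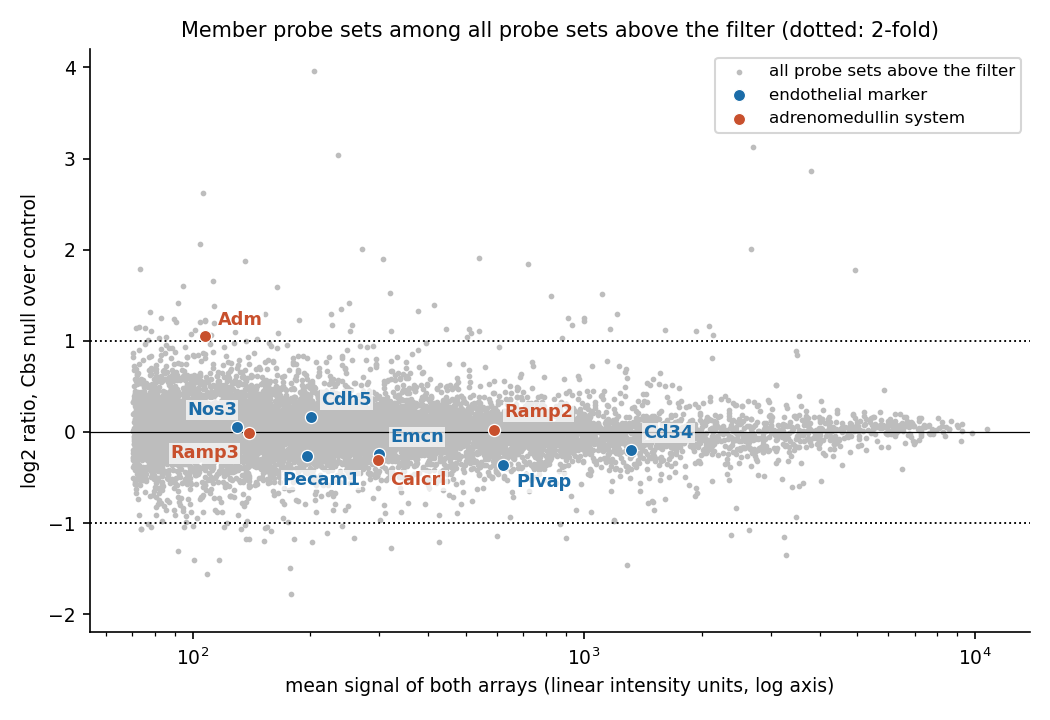
Log2 ratio of Cbs null over control against the mean signal of both arrays (linear intensity units, log axis) for the 11315 probe sets above the filter in grey, with the 6 endothelial markers in blue and the 4 adrenomedullin genes in orange, each by its brightest probe set. Adm lies just above the dotted 2-fold line at 1.06, and the other 9 lie between -0.36 and 0.16 inside the grey cloud.

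A wider list of endothelial genes showed a small difference in the direction of most markers. Of 45 listed genes 40 were on the array and 34 above the filter, each taken by its brightest probe set. Among these 21 (61.8%) had a ratio below 0, against 44.9% of all genes above the filter, and the median was -0.07, against 0.02. None was 1.5-fold apart, where 3.79% of all genes were. The lowest was Fli1, an ETS transcription factor, with 231.7 in control and 172.7 in Cbs null, a ratio of -0.42, with -0.10 in its other probe set. The highest was Lyve1, a hyaluronan receptor of lymphatic endothelium and some macrophages, which read 385.8 and 566.0, a ratio of 0.55, with 0.33 in its other probe set. Aplnr, the receptor of apelin and the brightest of the list, had -0.01, but -0.46 in its other probe set.

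A shorter list of 10 defining endothelial markers holds 5 of the members with Tek, Tie1, Kdr, Eng and Esam. Those other 5 are also in the wider list, so this list adds no gene to those already counted and is not a separate result. Its median was -0.13, with 7 of 10 below 0, against 0.02 and 44.9% for all genes above the filter. The 7 include the members Plvap, Pecam1, Emcn and Cd34. Tek, the angiopoietin receptor, was the highest at 0.26, and Plvap the lowest. Other receptor tyrosine kinases of endothelium, named after their values were seen, had 0.19 for Tie1, -0.04 for Kdr and -0.11 for Flt1, with -0.57 in another Flt1 probe set. The signals of the 10 markers in this shorter list summed to 4173.8 in control sites and 3730.4 in Cbs null sites.

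The rest of the calcitonin peptide family and its receptor signalling lay evenly on both sides. Of 20 listed genes 17 were on the array, and 14 were above the filter, 7 with a ratio above 0 and 7 below, with a median of 0.03 that stayed between -0.04 and 0.03 under the alternatives. None was 1.5-fold apart, against 3.79% of all genes above the filter. The ends of the list were a pair of adenylyl cyclases, enzymes that make the cyclic AMP through which Calcrl signals. Adcy6 read 212.2 in control and 307.2 in Cbs null, a ratio of 0.53. Adcy4 read 89.7 and 66.8, a ratio of -0.43. Gnas, the G protein subunit that couples the receptor to them and the brightest of the list, had 0.09.

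Other genes of the peptide's handling were looked at after their values were seen. Ramp1, the remaining partner of Calcrl, read 1207.3 in control and 1351.9 in Cbs null, a ratio of 0.16. Pam, the enzyme that amidates adrenomedullin to its active form, had -0.07. Ackr3, a receptor that takes up adrenomedullin and the chemokine Cxcl12, had -0.23, and Mme, neprilysin, which degrades small peptides, had -0.41. Of the same list, Crcp read 74.5 in control and 105.5 in Cbs null, a ratio of 0.50. Arrb2 had 0.41, with 0.43 in its other probe set. The 14 genes of the list had 7 ratios above 0 and 7 below. Calcb, Calcr and Iapp, a calcitonin gene-related peptide, the calcitonin receptor and amylin, read at most 11.6 on either array, under the floor of 14.3, so no difference was given for them.

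The nitric oxide pathway, in which Nos3 acts, gave a median of 0.02 over 12 of 17 genes on the array, 7 above 0 and 5 below, and the sign of that median changed with the scaling. The 1 gene of 12 that was 1.5-fold apart was Prkg2, a kinase activated by cyclic GMP, where 3.79% of all genes above the filter were. Prkg2 read 497.1 in control and 288.4 in Cbs null, a ratio of -0.79, with -0.91 in its other probe set. Ddah2, which breaks down an inhibitor of nitric oxide synthases, was the highest at 0.33. Hsp90aa1, a chaperone that binds Nos3 and the brightest of the list, had -0.17. Of the other synthases, Nos1 read 16.4 and 9.8 and Nos2 1.5 and 0.6, both under the filter.

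Genes that low oxygen induces, among which Adm is counted in many tissues, read mostly lower in Cbs null sites. Of 25 listed genes 22 were on the array and 19 above the filter, 14 (73.7%) with a ratio below 0, and the median was -0.12, against 44.9% and 0.02 for all genes above the filter. Whether that share differs, and any link to Adm, was not tested. The lowest was Pfkfb3, an activator of glycolysis, at 114.0 in control and 69.6 in Cbs null, a ratio of -0.71. It was the only 1 of the 19 that was 1.5-fold apart, a share near the 3.79% of all genes. The highest was Ddit4, an inhibitor of mTOR signalling, at 0.45, and Aldoa, a glycolytic enzyme and the brightest, had 0.04. Vegfa, the vascular endothelial growth factor, named after its value was seen, had -0.11.

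**Figure D3:**
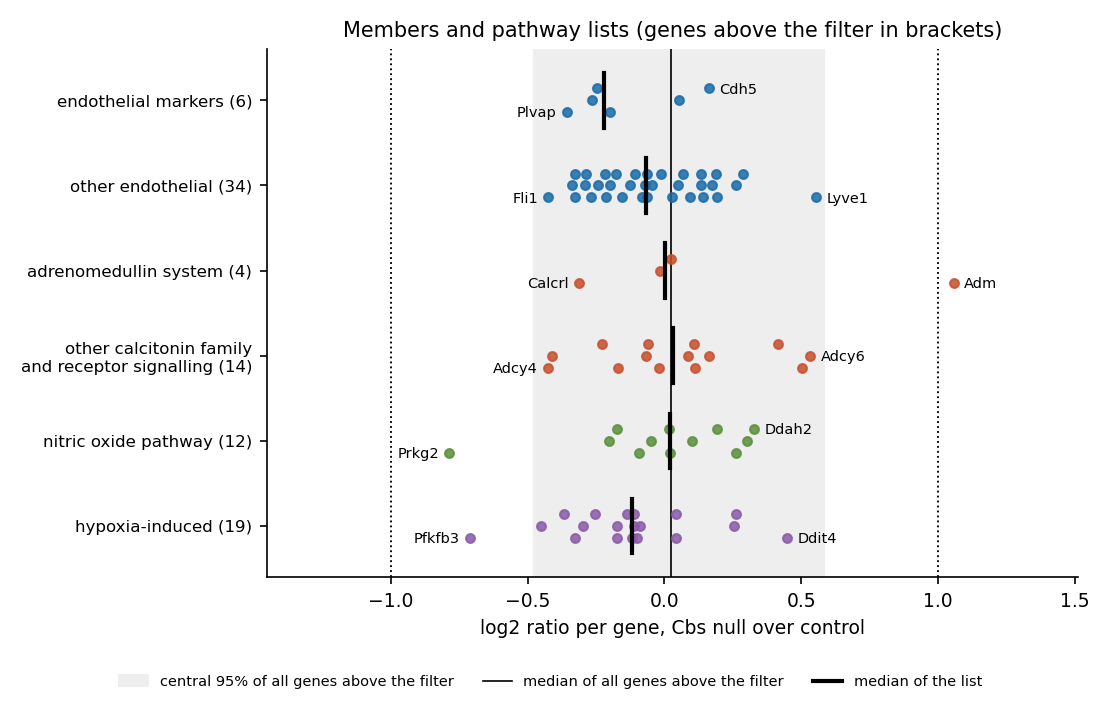
Log2 ratio of Cbs null over control for each gene above the filter (points) in the 2 member groups and the 4 pathway lists, with the number of genes in brackets, the median of each list as a thick bar, the central 95% of all genes (-0.48 to 0.58) as a grey band and 2-fold as dotted lines. Adm at 1.06, which passed the filter through its Cbs null value, stands outside the band, with Prkg2 at -0.79 and Pfkfb3 at -0.71. The endothelial markers have a median of -0.22.

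Markers of other cells in the tissue moved beside these genes, and their part in the results was not tested. Uterine natural killer cell genes, which belong to leukocytes that lie around decidual vessels, stood lower in Cbs null sites. Of 8 above the filter 6 had a ratio below 0, the median was -0.91, and the signals summed to 11026.6 in control sites and 5268.9 in Cbs null sites. Gzmc was the lowest at -1.46, Gzmd, the brightest, had -1.35, and the highest members, Klrk1 and Tyrobp, both had 0.05. Ncr1, a defining receptor of these cells, read 56.4 and 67.5, under the filter. Epithelial genes were higher, with 7 of 8 above 0, a median of 0.59 and a sum of 5443.3 and 21526.5. Spink1 had the highest ratio, at 3.13, Prss29, the brightest, had 1.78 and Cdh1 the lowest, at -0.02. The rise of the sum rests mostly on Prss29, Prss28 and Spink1. They read 2220.1, 918.9 and 556.3 in control and 7620.0, 6692.4 and 4853.2 in Cbs null. The remaining genes, named after their values were seen, had smaller ratios, 0.25 for Krt19, 0.39 for Epcam, 0.55 for Krt8 and 0.64 for Krt18. The sum is therefore no measure of the amount of epithelium. Muc1 and Foxa2 were under the filter, at 7.4 and 42.1 in control and 50.4 and 57.5 in Cbs null.

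Trophoblast, the outer cells of the embryo that meet the maternal vessels, had 2 of 5 listed genes on the array above the filter. Tpbpa read 228.1 in control and 598.7 in Cbs null and had 1.39, while Krt7, which uterine epithelium also makes, had 0.29, and the pair summed to 419.3 and 832.1. The trophoblast regulators Hand1, Ascl2 and Elf5 read at most 24.4 on either array. Red cell genes were higher in 4 of 4 above the filter, with a median of 0.90 and a sum of 2988.7 and 5531.5. Their ratios were 0.57 for Alas2, 0.85 for Hbb-y, 0.94 for Hbb-bh1 and 1.33 for Hba-x. The adult globin gene Hba-a1 read 0.4 and 1.5, under the floor, in its 1 probe set. Probe sets that list several genes were left out, so adult blood cannot be judged from this value.

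Lists of cells next to endothelium had medians that differed less, though single genes in them were further apart than the endothelial markers. Mural cells, the pericytes and smooth muscle that wrap vessels, had 5 of 10 genes below 0, a median of -0.01 and a sum of 20992.5 in control and 20608.0 in Cbs null. Anpep was the highest at 0.78, Acta2, the brightest, had 0.02, and Pdgfrb the lowest at -0.28, with 0.35 in its other probe set. Of the 10 only Anpep was 1.5-fold apart, against 3.79% of all genes above the filter. Blood cell and platelet genes, which matter because Cd34, Pecam1 and Emcn are also made by such cells, had 3 of 6 below 0, a median of 0.10 and a sum of 1451.1 and 1412.2. Kit was the lowest at -0.67 and the only 1 of the 6 that was 1.5-fold apart, Tal1 the highest at 0.31, and Ptprc, the brightest, had -0.06. Runx1, named after its value was seen, had -0.45, with -0.69 in another probe set. Gp9, Ppbp, Gata1 and Itgam were under the filter, at 23.4 or less on either array, and Itga2b, of platelets, also lay under it, at 44.0 and 72.0.

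Lymphatic endothelium, a site of adrenomedullin action in mice, had 3 of 4 genes on the array (5 listed) above the filter, with 2 ratios above 0 and 1 below. Lyve1 had 0.55, Flt4, a receptor of lymphatic growth factors, 0.03 and Pdpn, which decidual stroma also makes, -0.26, with a sum of 2784.5 in control and 2614.9 in Cbs null. Prox1, the regulator that defines lymphatic endothelium, read 0.9 and 8.5, under the floor on both arrays.

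**Figure D4:**
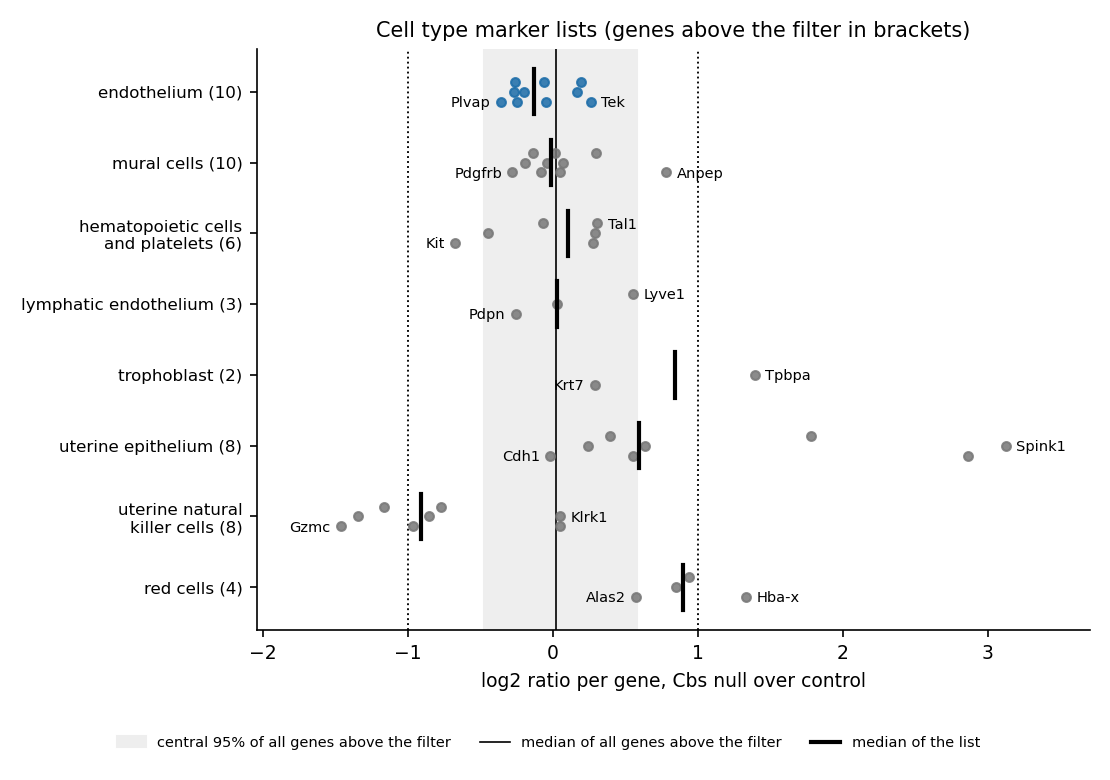
Log2 ratio of Cbs null over control for each gene above the filter (points) in 8 cell type marker lists, with medians as thick bars, the central 95% of all genes (-0.48 to 0.58) as a grey band and 2-fold as dotted lines. Endothelium has a median of -0.13 and mural cells -0.01, beside -0.91 for uterine natural killer cells, 0.59 for epithelium and 0.90 for red cells.

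The 2 probe sets of Cbs itself read 30.3 and 29.9 in control sites against 23.8 and 22.3 in Cbs null sites. All 4 values are under the filter, and the genotype cannot be checked from them. Over all probe sets the median was 68.8 for control and 71.4 for Cbs null.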

How the data were processed

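Total RNA of dissected implantation sites (2 microg) was made into biotinylated cRNA for Affymetrix arrays, per the labels' protocols. The authors deposited a linear intensity for each probe set on each array. GCOS 1.4 was the software, per the submitters' processing notes. Its algorithm, a genome build and detection calls were not found in the labels. The 2% trimmed mean was 200.08 on both arrays, so no scaling was added. The number of arrays limits the precision.

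Of 22690 probe sets, 64 controls were set aside. A single gene was named for 20380 by the platform annotation, 20351 of them matched by identifier to RefSeq symbols (GRCm38.p6). Of the others, 691 list several genes. Signals were floored at 14.3 (25th percentile), and probe sets with a mean signal of at least 70.5, the median, were kept (11315, 7079 genes). A gene in a list was read by its brightest kept probe set. No test was possible with 1 array a group; a call is a difference of at least 2-fold. Besides the members, the highest, the lowest and the brightest gene of each list were named, or all where 5 or fewer were kept. Members and lists were chosen with earlier results of these data known. Steps were tested on simulated data with planted changes larger than that of Adm and less noise than between these arrays. That test checks the code and does not bear on a call as near the limit as Adm. Python 3.11 was used with numpy 2.4.6, pandas 2.3.3 and statsmodels 0.14.6.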

Additional observations from a re-analysis of the deposited data

How the results depend on the processing

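Results were recomputed with 3 other scalings (quantiles, median centring, loess with span 0.3), with the floor at percentile 10 or 40 or replaced by a pseudocount of 16, with the filter at percentile 25 or 75 or dropped, without probe sets whose ID marks a match to several transcripts, and with each gene's median over its probe sets. The log2 ratio of Adm ran from 0.91 to 1.06. The count of members at least 2-fold apart, 1, became 0 with the pseudocount and 0 with the filter at the 75th percentile, which removes Adm. The median of the kept member probe sets, -0.11, was -0.25 with that filter (5 probe sets) and 0.04 without probe sets marked for several transcripts (6 probe sets, without Pecam1, Emcn, Calcrl and Ramp3). It was -0.20 without Adm, a choice made after seeing the data. The nitric oxide median of 0.02 was -0.17 with the filter at the 75th percentile (5 genes), and it lay at 0 or below in 6 settings. The cause of these changes was not tested, beyond the smaller numbers given in brackets. The median of other endothelial genes stayed between -0.09 and -0.04. Of 72 ratios of member probe sets under alternatives, 1 moved by more than 0.30 (the SD of the difference between kept probe sets of a gene, over 2284 genes), the dimmer Cdh5 probe set, at 0 with the higher floor. Detection calls were not at hand, so signal over background is not known for dim probe sets, and no setting stands in for a second animal.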

Other observations

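A further pair of probe sets lists Ramp2 together with Vps25, a gene next to it on the same chromosome that encodes a subunit of the endosomal sorting complex ESCRT-II, and was left out of the members because the share of each gene in the signal is not known. Probe set 1428621_a_at read 354.9 in control and 331.0 in Cbs null, a log2 ratio of -0.10. Probe set 1421051_s_at read 110.1 and 116.4, a ratio of 0.08. Both lie near the 0.02 of the probe set that names Ramp2 alone.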
